A study of Homo sapiens with 2 samples.

Results

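The peaks described here are those of TRF2 in the centromere bands of chromosomes 2, 9 and 18 in HCT116, a human colorectal carcinoma cell line. TRF2, the product of TERF2, was immunoprecipitated with 5 μg of antibody from 100 μg of chromatin, taken 72 h after plating and fixed with 1% formaldehyde. There was 1 immunoprecipitated library and 1 input library of sonicated chromatin without antibody, both from HCT116. The name of the peak list mentions a control siRNA and the labels mention no transfection, so whether both libraries come from transfected cells is not settled. A peak was a member if its summit lay in a cytogenetic centromere band of hg38: 91.8 to 96.0 Mb on chromosome 2, 42.2 to 45.5 Mb on chromosome 9 and 15.4 to 21.5 Mb on chromosome 18. This took 1440 of the 24258 peaks of the authors' list (5.94%), with 328 on chromosome 2, 694 on chromosome 9 and 418 on chromosome 18. There was 1 library on each side, so comparisons between samples were not possible, and every interval given covers counting error only. Neighbouring peaks are not independent, so these intervals are narrower than the true uncertainty.

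TRF2 belongs to shelterin, the protein complex of telomeres. It recognises the TTAGGG repeat in duplex DNA and shields chromosome ends from the DNA damage response. Human centromeres are built on alpha satellite, a tandem repeat of AT-rich monomers that is ordered into long higher-order arrays, on which the CENP-A nucleosomes of the kinetochore assemble. In hg38 the large arrays are modelled sequences, in which repeat copies are not placed one by one from a known order. Centromere bands also take in flanking sequence, with segmental duplications, pseudogenes and some active genes. The sources used here do not say where reads that align to many copies were placed, so the copy from which a read in such an array came is not settled.

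Sequence was at hand only for gene promoters, 300 bases around annotated starts from RefSeq (GRCh38.p14). The 3 bands held 36 such promoters, of 32 genes, and none of them overlapped a peak. The same count over the whole promoter table was not made, so this is not read as a trait of these promoters. Not every gene of the bands has a promoter in this set, and a summit lay 0.143 kb from the pseudogene ACTR3BP2, which has none. Of the 36 promoters, the one nearest to any peak is shown. It belongs to the long non-coding RNA gene XLOC_007697 on the plus strand, at chr9:42788150-42788449, and it lay 2084 bp from the peak at 42790533 to 42790616 (fold 4.56, 9 reads, −log10 q 2.77). Capitals mark the telomere hexamer TTAGGG, at bases 53 to 58 of the sequence.
XLOC_007697: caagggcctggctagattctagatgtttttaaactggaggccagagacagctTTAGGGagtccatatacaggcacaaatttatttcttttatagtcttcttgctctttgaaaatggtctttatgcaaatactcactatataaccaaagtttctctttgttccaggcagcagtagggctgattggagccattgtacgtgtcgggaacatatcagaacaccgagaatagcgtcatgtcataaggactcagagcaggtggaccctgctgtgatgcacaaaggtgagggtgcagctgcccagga
The hexamer TTAGGG, searched on both strands, was in 5 of the 36 promoters of these bands (13.9%) and in 3179 of the 35116 promoters of the RefSeq table (9.05%). A match of 6 letters is a description and not a binding site.

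The first comparison set the 3 bands against each other. Chromosome 9 had the densest band, with 210 peaks per Mb (exact Poisson 95% interval 195 to 227). Chromosome 2 had 78.1 per Mb (69.9 to 87.0) and chromosome 18 had 68.5 per Mb (62.1 to 75.4). The density of chromosome 2 was 0.371 times that of chromosome 9 (exact interval 0.325 to 0.424), and the density of chromosome 18 was 0.326 times that of chromosome 9 (0.288 to 0.368). Between chromosomes 18 and 2 the ratio was 0.877, with an interval of 0.758 to 1.02 that includes equal densities. A peak is called strong here where its −log10 q was at least 5, which 30.0% of the whole list reached. Strong peaks gave the same order. There were 28.5 strong peaks per Mb on chromosome 9, 11.4 on chromosome 2 and 10.5 on chromosome 18. The ratio of strong peaks was 0.401 for chromosome 2 over 9 (0.277 to 0.574), 0.368 for 18 over 9 (0.264 to 0.511) and 0.918 for 18 over 2 (0.622 to 1.36). Band length weighs on the size of the ratio of chromosome 18 over 2, though not on the order. Over the 100 kb bins that held a peak the ratio was 0.614, for which no interval was computed.

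Median fold and the share of strong peaks differed far less than density. Fold over input, the authors' value at the summit, had a median of 3.99 on chromosome 2 (quartiles 3.41 and 4.88, range 2.32 to 13.2). On chromosome 9 the median was 4.23 (quartiles 3.42 and 4.88, range 2.28 to 12.9), and on chromosome 18 it was 4.12 (quartiles 3.41 and 4.87, range 1.74 to 11.7). The 3 distributions thus overlapped almost wholly. Strong peaks made up 14.6% of the list on chromosome 2 (48 peaks, exact binomial interval 11.0% to 18.9%), 13.5% on chromosome 9 (94 peaks, 11.1% to 16.3%) and 15.3% on chromosome 18 (64 peaks, 12.0% to 19.1%). These intervals overlap, and all 3 lie below the 30.0% of the whole list. At a stricter limit the shares were further apart. A −log10 q of 10 or more was reached by 1.52% on chromosome 2, 3.89% on chromosome 9 and 5.98% on chromosome 18. Neither an interval nor the share of the whole list was computed at this limit, so no difference between chromosomes is read from it. A q-value under 0.05 was met by 72.3%, 77.4% and 74.4% on chromosomes 2, 9 and 18, against 79.3% in the whole list. A fold of 5 or more was reached by 20.4%, 19.9% and 18.7%, against 25.2%.

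**Figure D1:**
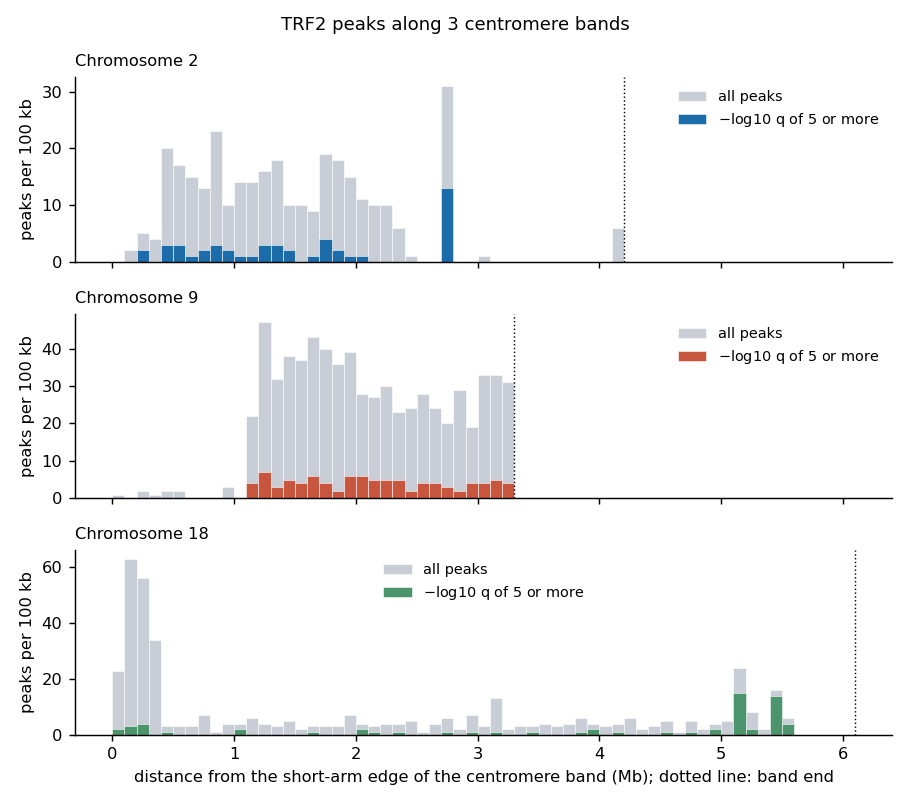
Peaks per 100 kb along the centromere bands, by distance from the short-arm edge in Mb. Grey bars count all peaks and coloured bars the strong ones (−log10 q at least 5), with the band's end dotted. Chromosome 9 is filled evenly after an almost empty start, chromosome 2 has a separate bin of 31 peaks, and chromosome 18 has a dense start and strong peaks near the far end.

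The depth behind the peaks was shallow. A pileup, the number of immunoprecipitated reads over the summit, was solved from the fold and p-value that the authors' peak caller gave. It had a median of 8 reads on chromosome 2 (range 5 to 53), 9 on chromosome 9 (5 to 102) and 8 on chromosome 18 (5 to 94). The input background at the same summits, in scaled reads, had medians of 1.05, 1.13 and 1.13. Its genome-wide minimum is 1.05, and 52.7% of peaks on chromosome 2 lay at that minimum (exact binomial interval 47.2% to 58.3%), 43.9% on chromosome 9 (40.2% to 47.7%) and 31.1% on chromosome 18 (26.7% to 35.8%). In the whole list 29.5% did, which lies inside the interval of chromosome 18. In the other centromere bands 18.1% did, or 29.3% without chromosomes 1 and 13. On the arms of chromosomes 2, 9 and 18 it was 78.1%. Many of these centromeric peaks therefore stood where the input had little coverage, but peaks of the arms did so more often. Peaks were also narrow, with median widths of 86 bp on chromosome 2, 95 bp on chromosome 9 and 89.5 bp on chromosome 18. Together they covered 33.2 kb, 80.0 kb and 46.0 kb of these bands.

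Against the rest of the series, the 3 bands were moderate. Their 106 peaks per Mb (100 to 111) compare with 174 per Mb (171 to 176) over the other 21 centromere bands, a ratio of 0.610 (0.578 to 0.644). Chromosomes 1 and 13 hold many of those other peaks, and without them, a choice made after the values were seen, the others had 115 per Mb and the ratio was 0.920 (0.870 to 0.973). Among the 24 bands ranked by density chromosome 9 came 7th, chromosome 2 came 13th and chromosome 18 came 14th. The share of strong peaks was 14.3% in the 3 bands (12.5% to 16.2%), against 31.5% in the others (30.7% to 32.3%) and 18.1% in the others without chromosomes 1 and 13 (17.3% to 18.9%). Median pileup was 8 reads in the 3 bands and 13 in the others, or 10 without chromosomes 1 and 13. The strongest member ranked 157th by fold in the whole list, and none was among the first 100.

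**Figure D2:**
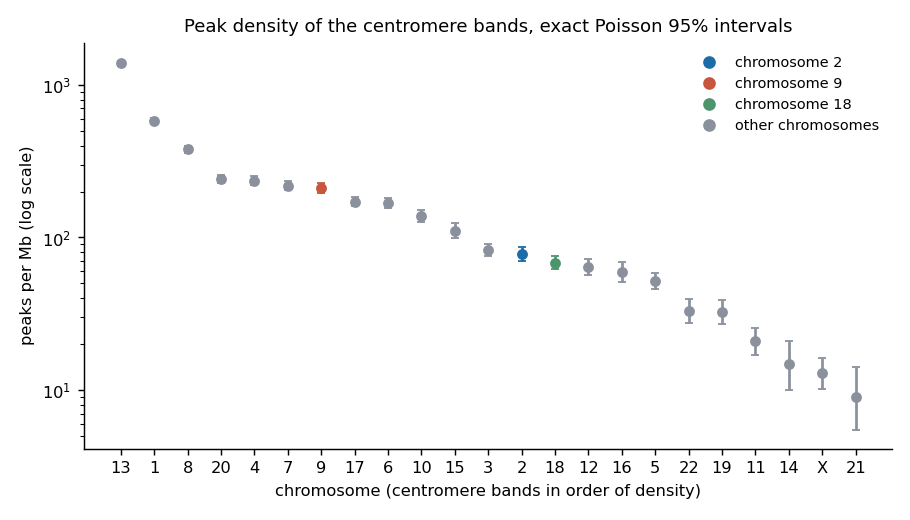
Peaks per Mb (log axis) in each centromere band that held a peak, in order of density, with exact Poisson 95% intervals. Chromosome 9 (210 per Mb) stands apart from chromosomes 2 (78.1) and 18 (68.5), whose intervals overlap.

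The arms of the same chromosomes were set beside their bands. The band of chromosome 2 had 78.1 peaks per Mb and its arms 1.01, a ratio of 77.4 (65.3 to 91.9). The band of chromosome 9 had 210 and its arms 1.49, a ratio of 141 (119 to 167). The band of chromosome 18 had 68.5 and its arms 1.17, a ratio of 58.7 (46.2 to 75.4). The intervals of chromosomes 2 and 18 are apart from that of chromosome 9. Arms here leave out 2 Mb on either side of a band and the variable heterochromatin of chromosome 9. Strong peaks made up 14.3% in the 3 bands (12.5% to 16.2%) and 10.8% on their arms (8.16% to 13.8%), and the chromosomes did not share a direction. On chromosome 2 the share was 14.6% in the band and 11.4% on the arms (7.68% to 16.2%). On chromosome 9 it was 13.5% in the band (11.1% to 16.3%) and 6.86% on the arms (3.59% to 11.7%), and on chromosome 18 it was 15.3% in the band and 17.1% on the arms (9.66% to 27.0%). The intervals of band and arms overlap on each chromosome. Median fold was 4.12 in the bands and 3.76 on these arms.

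Within chromosome 2 the peaks formed a broad field, a separate dense patch and a long empty stretch. With summits no more than 50 kb apart joined, the field held 275 peaks from 92190834 to 94087548, over 1897 kb. Its median fold was 3.99 and its median pileup 8 reads, and 33 of its peaks (12.0%) were strong. Neighbouring summits lay a median of 5033 bp apart there, without a gap over 50 kb.

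The separate patch of chromosome 2 held 31 peaks within 68.6 kb, from 94500326 to 94568967 in band q11.1. Its 100 kb bin was the densest of the band, with 9.45% of its peaks (exact binomial interval 6.51% to 13.1%). Of these peaks 13 were strong (41.9%), which is 27.1% of all strong peaks of the band. Neighbouring summits in the patch were a median of 1365 bp apart. Both libraries were deeper here than in the field, with a median pileup of 13 reads and a median background of 1.69 in the patch, against 8 reads and 1.05 in the field. The 3 deepest peaks of the chromosome 2 band lay in it. They had 53, 45 and 41 reads, over backgrounds of 20.3, 11.8 and 10.7, and folds of only 2.53, 3.58 and 3.58. The peak of 53 reads spans 94502414 to 94502519.

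The peaks of highest fold in the chromosome 2 band had fewer reads, from 15 to 26, over backgrounds of 1.05 to 1.75. The first, at 92251180 to 92251265 in band p11.1, had a fold of 13.2 from 26 reads over a background of 1.05 and a −log10 q of 23.3. The next was inside the patch, at 94513906 to 94513989, with a fold of 11.3 from 23 reads. Peaks at 92300196 to 92300292, 92081267 to 92081346 and 93894249 to 93894366 followed, with folds of 8.46, 8.36 and 7.81. Beside the fourth of these lay the widest peak of the band, 285 bp from 92081450, with a fold of 2.32 and a −log10 q of 0.654.

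Between the patch and the long-arm edge of chromosome 2, 7 peaks remained in total. A single peak with a fold of 3.90 lay at 94837703 to 94837784 in the transcribed pseudogene ANKRD20A8P. The largest gap of the band then ran 1094 kb, from the summit at 94837756 to that at 95932038. It holds 43 annotated genes, 12 of them protein-coding. Among these are MRPS5, a mitochondrial ribosomal protein gene, MAL, PROM2, KCNIP3, which encodes a potassium channel interacting protein, and the zinc finger genes ZNF514 and ZNF2. The gap lies between neighbouring summits, so by construction no gene inside it holds one. Of the 12, the nearest to a summit, at 33.7 kb, was TEKT4, which encodes a tektin of the sperm flagellum.

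The remaining 6 peaks lay in ANKRD36C (95848932 to 95991824), a gene of the ankyrin repeat family. It was the only protein-coding gene of the band with a summit within 3 kb, and all 6 were inside it, between 95932005 and 95952407. Their folds ran from 2.93 to 4.88 and their pileups from 5 to 9 reads, each over the minimum background of 1.05. Their highest −log10 q was 3.20, so none was strong. The gene has close relatives on the same chromosome, and reads from such copies cannot be told apart here. Its annotated start is at the high-coordinate end, on the minus strand, and that promoter was 39368 bp from the nearest peak.

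**Figure D3:**
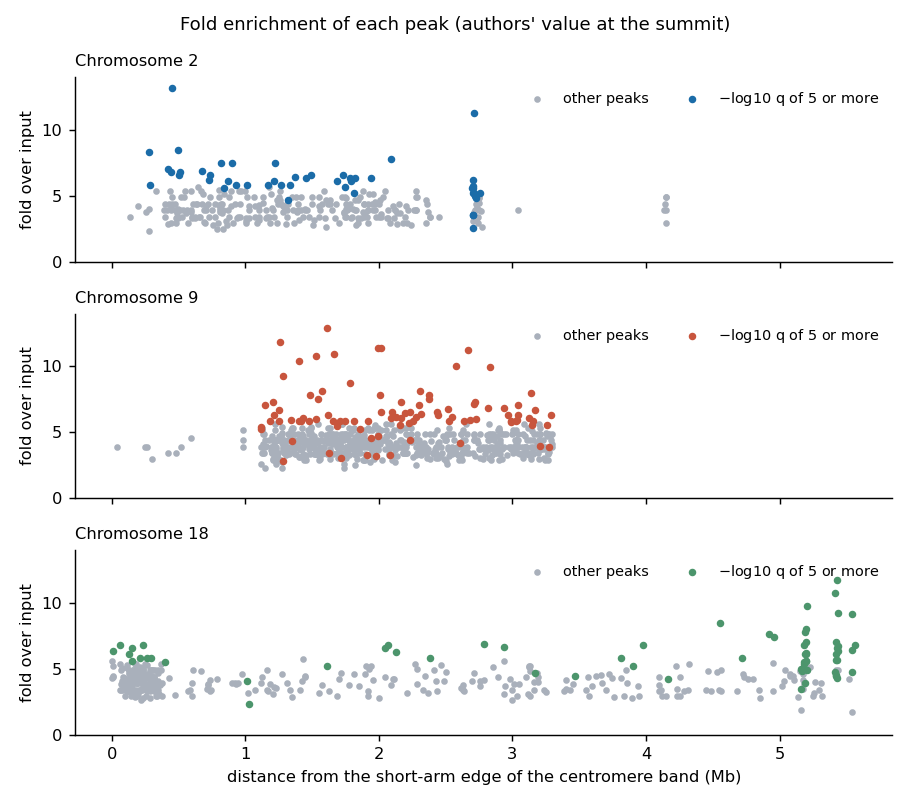
Fold over input of each member peak by distance from the short-arm edge of its band (Mb), with strong peaks coloured. The highest folds are 13.2 on chromosome 2, 12.9 on chromosome 9 and 11.7 on chromosome 18. Strong peaks run through the field of chromosome 9 and gather towards the far end on chromosome 18.

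Chromosome 9 had 1 dense field and little else. With summits up to 50 kb apart joined, 683 of its 694 peaks fell into 1 run, from 43318631 to 45499074, over 2180 kb in band q11. The 8 peaks of band p11.1 gave 10.0 per Mb (exact Poisson interval 4.32 to 19.7) and the 686 of band q11 gave 274 per Mb (254 to 296). Each 100 kb bin of the field held from 19 to 47 peaks, and the densest took only 6.77% of the band's peaks (5.02% to 8.90%). Summits were a median of 2438 bp apart in the field. With summits up to 10 kb apart joined, the field broke into smaller clusters. The largest held 136 peaks over 350 kb, from 43875957 to 44225901, of which 16 were strong (11.8%). The next held 78 peaks over 202 kb, from 43377079 to 43578905, of which 10 were strong. In all, 657 of the 694 peaks (94.7%) were in clusters of 10 or more, against 29.6% on chromosome 2 and 49.0% on chromosome 18. A fixed join of 10 kb gathers more peaks where they are denser, so this share is not independent of density. Strong peaks made up 13.4% in clusters of that size on chromosome 9 (10.9% to 16.2%) and 16.2% outside them (6.19% to 32.0%). On chromosome 18 the shares were 17.6% inside (12.6% to 23.5%) and 13.1% outside (8.92% to 18.4%), and these intervals also overlap. On chromosome 2 they were 27.8% inside (19.2% to 37.9%) and 9.09% outside (5.72% to 13.6%), with intervals apart. The separate patch of 31 peaks gave 13 of the 27 strong peaks inside. Whether the intervals stay apart without that patch was not tested.

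Strong peaks on chromosome 9 were spread through this field. All 94 lay in it, in 22 of the 100 kb bins, and no bin held more than 7. None of the 11 peaks on the short-arm side of the field was strong. Their folds ran from 2.97 to 5.17 and their pileups from 6 to 10 reads. In the chromosome 9 band a fold of 10 or more was reached by 9 peaks, spread over 1.40 Mb, or 1.30% of its peaks (0.595% to 2.45%). The chromosome 2 band had 2 such peaks, or 0.610% (0.0739% to 2.19%), and the chromosome 18 band 2, or 0.478% (0.0580% to 1.72%). These intervals overlap, and the share in the whole list was 1.96%.

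The first of those on chromosome 9 lay at 43813527 to 43813715, with a fold of 12.9 from 29 reads. The peak at 43463496 to 43463672 had a fold of 11.9 from 31 reads. Peaks at 44195564 to 44195656 and 44215652 to 44215740 shared a fold of 11.4, a pileup of 36 reads and a background of 2.26. The fifth, at 44863947 to 44864038, had a fold of 11.3 from 23 reads. The highest −log10 q of the band, 27.8, belonged to the peak at 44776208 to 44776299, with 43 reads and a fold of 10.0. As on chromosome 2, the deepest peaks had low folds. The peak at 44175487 to 44175579 had 102 reads over a background of 31.0 (fold 3.22), and that at 43918806 to 43918886 had 84 reads over 26.5 (fold 3.09). The widest peak spanned 487 bp, from 43688657 to 43689143, with 15 reads, a fold of 4.91 and a −log10 q of 4.85.

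The field of chromosome 9 reached the long-arm edge of the band, and few peaks followed beyond it. The last peak inside, at 45498819 to 45499125, had a fold of 4.09 and the first outside, at 45500293 to 45500375, had a fold of 5.37. The next 2 Mb held 4 peaks in all. At the other edge the first peak inside had a fold of 3.90, at 42243437 to 42243525, and the nearest outside a fold of 3.41, at 41905929 to 41906057. On chromosome 2 the first and last peak inside had folds of 3.41 and 2.93, and the nearest outside had 3.90 and 3.41. On chromosome 18 the first peak inside, at 15404741 to 15404810, had a fold of 5.63 and the nearest outside it, at 15387697 to 15387765, a fold of 4.23. Beyond the other edge the nearest peak, at 21885950 to 21886018, had a fold of 4.39.

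Chromosome 18 was the least even band. Its peaks fell into a dense block at the short-arm edge, a long sparse stretch and a group of strong peaks towards the long-arm end. From the last summit, at 20965420, to the end of the band at 21.5 Mb there was no peak. With summits up to 10 kb apart joined, the block held 170 of the 418 peaks, from 15461771 to 15779566, over 318 kb. Its densest 100 kb bin held 63 peaks, or 15.1% of the band (11.8% to 18.9%), and 6 of the 61 bins held 50% or more of the peaks. The block was dense but weak. Only 8 of its 170 peaks were strong (4.71%), its highest pileup was 14 reads and its highest fold 6.83. Summits there were a median of 1572 bp apart.

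The sparse stretch of chromosome 18 ran from the block to 20574949 and held 194 peaks over 4.80 Mb, or 40.5 per Mb (exact Poisson interval 35.0 to 46.6). Each of its 47 whole bins of 100 kb held at least 1 peak, with a median of 4 and a highest count of 13. Its summits were a median of 16.8 kb apart. Of its peaks 23 were strong (11.9%, exact binomial interval 7.67% to 17.3%). Fewer of them lay at the minimum background than in the block, 20.1% (14.7% to 26.4%) in the stretch and 47.1% in the block. The deepest peak of the band was in this stretch, at 16431050 to 16431118, with 94 reads over a background of 40.1 and a fold of 2.31.

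The long-arm end of the filled part of the chromosome 18 band carried most of its strong peaks. The last 5 bins with a peak, from 20500001 to 21000000, held 56 peaks (13.4% of the band), of which 35 were strong (62.5%). These are 54.7% of the 64 strong peaks of the band. The peaks from 20500001 to 20574949 are also counted in the sparse stretch. In band q11.1 as a whole, 32.6% of 138 peaks were strong (24.9% to 41.1%), and in band p11.1 6.79% of 280 (4.13% to 10.4%). For the band arms of chromosome 2 the shares overlapped, at 20.0% in q11.1 (11.1% to 31.8%) and 13.3% in p11.1, inside that interval.

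A pair of clusters made up much of that end. The first held 19 peaks within 27.7 kb, from 20574950 to 20602643, with a median fold of 5.57 (range 3.44 to 9.76), and 14 were strong (73.7%). The second held 16 peaks within 24.2 kb, from 20814513 to 20838730, with a median fold of 5.91 (4.32 to 11.7), and 14 were strong (87.5%). Summits were a median of 1372 bp apart in the first and 1516 bp in the second. Median pileups were 17 and 21 reads and median backgrounds 2.26 and 2.82. Both clusters thus had deeper input than the block at the short-arm edge, where the median background was 1.07. The patch of chromosome 2 had summits spaced almost alike, at 1365 bp, and a lower share of strong peaks, at 41.9%.

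Of the 5 peaks of highest fold in the chromosome 18 band, all but the fifth lay in these clusters. The first was at 20831881 to 20832060, with a fold of 11.7 from 23 reads over the minimum background. The peaks at 20817072 to 20817169, 20601362 to 20601457 and 20835055 to 20835155 had folds of 10.7, 9.76 and 9.27, from 21, 19 and 18 reads. The widest peak of the 3 bands, 505 bp from 20582103, was in the first cluster, with a fold of 6.84 and 29 reads.

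The fifth by fold lay apart, at 20939296 to 20939440. It had 91 reads over a background of 9.03 and a fold of 9.18, and its −log10 q of 52.7 was the highest of all 1440 peaks.

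**Figure D4:**
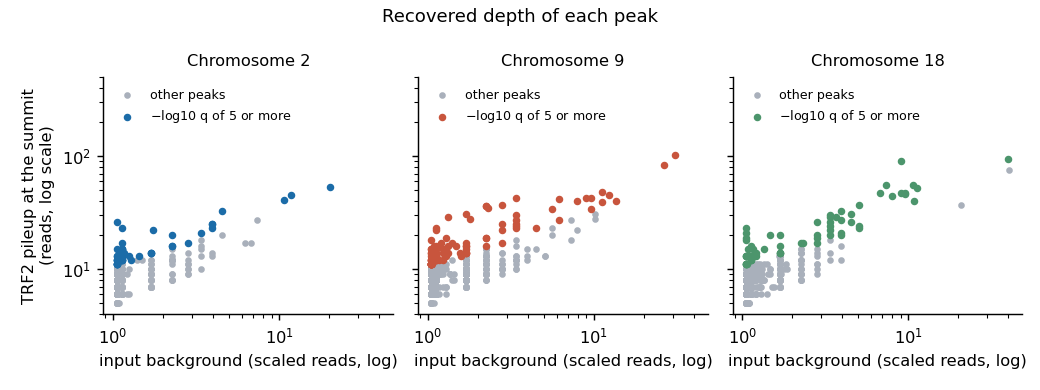
Reads of the TRF2 pileup at each summit against the input background in scaled reads, both on log axes, for the 3 bands. The highest folds, 13.2, 12.9 and 11.7 on chromosomes 2, 9 and 18, come from 26, 29 and 23 reads over low background. The peak of 102 reads sits over a background of 31.0.

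Genes of the chromosome 2 and 9 bands carried few peaks. The bands of chromosomes 2 and 9 overlap 64 and 29 annotated genes, and 3 genes on each had a summit within 3 kb. Gene bodies take up 21.5% of the band of chromosome 2 and held 2.13% of its summits (exact binomial interval 0.862% to 4.35%). They take up 7.93% of the band of chromosome 9 and held 0.288% (0.0349% to 1.04%). No gene is annotated within the broad field of either chromosome, where most summits lay. These shares therefore cannot tell avoidance of genes from the placement of the annotation. Inside genes there were 7.75 peaks per Mb on chromosome 2 (7 summits) and 7.65 on chromosome 9 (2 summits). The arms of these chromosomes had 1.01 and 1.49 per Mb. Of the 15 protein-coding genes of the band of chromosome 2, ANKRD36C alone had a summit within 3 kb. Chromosome 9 has a single protein-coding gene in its band, LOC112268044, which was 104 kb from the nearest summit. The other genes of these bands with a summit within 3 kb were the pseudogenes ACTR3BP2 (fold 3.41), ANKRD20A8P (3.90), RBPJP6 (2.97) and LOC124902164 (up to 3.90), and XLOC_007697 (4.56).

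Outside the band, the short-arm side of chromosome 2 held the deeper peaks. Its 2 Mb flank held 147 peaks with a median pileup of 26 reads, and 57.8% were strong (49.4% to 65.9%), against 14.6% in the band (11.0% to 18.9%). The flanks of chromosome 9 held 40 and 4 peaks, those of chromosome 18 held 6 and 3, and the long-arm flank of chromosome 2 held 6.

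Because alpha satellite is a tandem repeat, distances between summits were searched for a common period from 60 to 400 bp. The period at which pairs up to 5 kb apart were most in phase was 240 bp on chromosome 2, 96 bp on chromosome 9 and 304 bp on chromosome 18. The mean resultant length, which is 0 for no phase and 1 for perfect phase, was 0.141, 0.0631 and 0.0947 at these periods, over 267, 1003 and 593 pairs. These values are low, and the period moved with the pair distance or the q-value limit on each chromosome. No period shared by the 3 chromosomes was detectable from the summits.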

How the data were processed

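The data were 1 peak list of a TRF2 immunoprecipitated library over its input in HCT116. Per the submitters' processing notes, ChIPseeker, HOMER, MACS2 2.1.0 and Bowtie2 2.3.2 were used with hg38, also called GRCh38. Their settings, and what became of duplicate or multiply aligned reads, stand in no source used here. Per the narrowPeak layout, the deposited fold is a ratio of pileup to local input background at the summit, and 2 further deposited columns give −log10 of the summit's p-value and −log10 of its q-value, from MACS2. The deposited score equals the whole part of 10 times −log10 p in all 24258 peaks. These authors' values served to describe peaks and to rank or filter them within the list.

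Pileup and background were solved from fold and p in MACS2's forms, fold being pileup plus 1 over background plus 1 and p the Poisson probability of more reads. The pileup came out whole in 100% of peaks (tolerance 0.001 on −log10 p, largest residual 0.000140). Bands came from circlize 0.4.16 (R 4.3.3), genes and promoters from RefSeq tables of GRCh38.p14. Coordinates are 1-based. Library totals are not given, so depth is known only at summits. Intervals are exact at 95%. Scripts ran in Python 3.11.15 with pandas 2.3.3, scipy 1.17.1, matplotlib 3.10.9 and numpy 2.4.6.

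The members and lists were chosen with earlier results of these data known. Named peaks are, per band, the 5 of highest fold, the widest, the deepest, the first and last and the nearest outside; named genes are protein-coding ones with a summit within 3 kb, or else the nearest, and up to 6 others by fold. The stretches described within bands, the deepest 3, the peaks of highest −log10 q and the genes named without a peak were added after the values were seen. Gene results of chromosome 18 are not reported here. Planned sequence features of peaks were not analysed, as no genome was used here.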

Additional observations from a re-analysis of the deposited data

How the results depend on the processing

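No paired analysis was possible because there was 1 library on each side. Of 92 alternative values 48 stayed within the reported value's interval, within 1.5 times of a count or within 1 bp of a period, 44 moved and none reversed. Most of these values are densities, medians, shares, counts or periods, which have no direction to reverse. Counting each interval once, or asking for the whole peak in the band, left every value as it was. Sequence settings were not run. Depth limits the list at 5 reads over the minimum background, so weaker enrichment was not detectable where the input was at that minimum. Where both libraries were deeper, folds down to 1.74 were listed in these bands.

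Density moved on chromosomes 2, 9 and 18 to 11.4, 28.5 and 10.5 per Mb with strong peaks alone and to 16.0, 41.8 and 12.8 with a fold of 5 or more, as fewer peaks are counted. Over 100 kb bins with a peak it was 121 per Mb on chromosome 2, and the density ratios were 0.490 for 2 over 9 and 0.614 for 18 over 2. Median fold among peaks with q under 0.05 was 4.39 on each of the 3 chromosomes. With background above its minimum, median pileup was 10 reads on chromosomes 2 and 9, and median background was 1.69, 1.60 and 1.32 on chromosomes 2, 9 and 18. A −log10 q of 10 or more was reached by 1.52%, 3.89% and 5.98% of peaks, and a fold of 5 or more by 20.4% on chromosome 2 and 19.9% on chromosome 9, in place of the strong shares.

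Clusters at 10 kb numbered 79, 37 and 143 on chromosomes 2, 9 and 18. At 5 kb there were 159 on chromosome 2 and 151 on chromosome 9, and at 50 kb there were 9, 7 and 26. The densest bin held 27.1% of strong peaks on chromosome 2 and 23.4% on chromosome 18. In 50 kb bins it held 3.60% on chromosome 9 and 7.66% on chromosome 18. The period of summit distances was 131, 82 and 61 bp on chromosomes 2, 9 and 18 for pairs up to 2 kb, 149 bp on chromosome 9 and 174 bp on chromosome 18 up to 10 kb, and 109, 156 and 155 bp with q under 0.05. Genes with a summit numbered 7 on chromosome 2 and 6 on chromosome 9 within 10 kb, and 1 on chromosome 9 within the gene span. The alternative without chromosomes 1 and 13 among the other bands was chosen after seeing the data. It gave a density ratio of 0.920 and a strong share of 18.1% in those bands. Where no construction shows the cause, as for the periods, the cause was not tested.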
